A study of Mus musculus with 6 samples.

Results

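Expression of 9 genes known as targets of PPAR-alpha in the fasting liver (Acot1, Acot3, Acot4, Cyp4a10, Cyp4a14, Ehhadh, Pdk4, Fgf21 and Vnn1) was examined in the livers of pups with and without an activated human SRY transgene. Members were taken as all probes of the array that carry one of these gene symbols, which gave 9 probes of 25697 on the array, for 8 of the 9 genes. Cyp4a10 was not analysed here. Liver RNA from 3 hSRY-ON and 3 hSRY-OFF pups was read on bead arrays (Illumina MouseRef-8, one colour), which measure each transcript by one or a few probes. All pups were males of strain FVB (FVB/N in the study's methods) at age P6, which is postnatal day 6. In hSRY-ON pups, a single copy of the Signalox-hSRY cassette placed at the H11 locus had been recombined by Cre from the oocytes of Ddx4-Cre mothers, so that the broadly active CAG promoter drove human SRY together with EGFP. The hSRY-ON pups chosen for the arrays did not themselves carry Ddx4-Cre. The name hSRY-OFF stands, in the study's methods, for Signalox-hSRY mice without recombination, in which the CAG promoter drives DsRed2 instead. Elsewhere the study takes littermates without the cassette as controls, and it calls the array controls age-matched. Whether the array pups of both groups shared litters or mothers is not in the labels, so these cannot be told apart from the transgene. All pups with the cassette come from this one line. Feeding state and body weight of the pups are not in the labels, and no probe for the transgene was used as a check of the groups. The study reports that hSRY-ON pups suckled minimally, lacked milk in the stomach, grew slowly and had fatty liver. It does not give these traits for the individual array pups, and their part in the results was not tested.

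PPAR-alpha is a nuclear receptor that binds fatty acids and, paired with a retinoid X receptor, switches on genes for the uptake and oxidation of fats. In the liver it is best known for its part in suckling and in fasting, when fatty acids from milk or from adipose tissue become the main fuel. Its target genes hydrolyse, oxidise or hydroxylate fatty acids, turn glucose away from the mitochondria and send hormones to other organs.

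The arrays were alike in depth of detection, with 40.2% to 41.9% of probes detected at a detection p under 0.01 and median raw intensities of 147 to 165. Each of the 15 probes for 11 hepatocyte marker genes was detected on at least 1 array, and their summed normalised signal was 284000 to 291000 in hSRY-OFF and 262000 to 286000 in hSRY-ON pups. Of these probes 4 were lower in hSRY-ON, those of Alb, Serpina1a and Ttr, and no other passed the test. The summed signal of stellate cell markers was 9880 to 11300 in hSRY-OFF and 17500 to 20100 in hSRY-ON pups. Of 10 tested probes 5 were higher, among them all 4 of Acta2, and 2 were lower. By gene this was 2 higher and 2 lower of 7 tested. The sum runs over probes, so a gene with several probes, such as Acta2, enters it several times. The summed signal of erythroid markers was 64300 to 83500 against 81000 to 94100, with 3 of 10 tested probes higher. Macrophage markers summed to 10600 to 13500 against 8020 to 10100, with 4 of 11 tested probes lower and 1 higher, and endothelial markers to 8550 to 10200 against 7260 to 9160, with 3 of 7 higher and 1 lower. All probes for markers of kidney (15), heart and skeletal muscle (11), adrenal gland (8) and adipose tissue (5) were undetected on every array. Of the 7 probes for markers of intestine and pancreas 5 were undetected on every array, and the 1 tested, of Cela1 (Ela1 on the array), was higher by 0.44 (adjusted p 0.0397). The sums over that list were 654 to 745 in hSRY-OFF and 887 to 992 in hSRY-ON pups. The part of these marker shifts in the results that follow was not tested, and in whole liver fewer cells of a type and less RNA per cell cannot be told apart.

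Among 10734 tested probes, 33.1% passed an adjusted p of 0.05 (limma, Benjamini-Hochberg), 15.8% as higher and 17.3% as lower in hSRY-ON. Of the 9 member probes 8 were tested, and 5 of them were higher in hSRY-ON (4 genes: Acot1, Cyp4a14, Ehhadh and Pdk4), 2 were lower (Acot3 and Acot4) and 1 did not pass (Fgf21). The probe of Vnn1 was below detection on all arrays. In 7 of the 8 tested probes the 3 hSRY-ON values did not overlap the 3 hSRY-OFF values, against 50% of all tested probes. These were 5 probes with higher hSRY-ON values, against 25.4% of all tested probes, and 2 with lower, against 24.6%. The median difference, hSRY-ON minus hSRY-OFF, was 1.30 on the log2 scale over the 8 tested member probes and 0.017 over all tested probes. A call of a 2-fold or larger rise was made for 5.24% of all tested probes and one of a 2-fold or larger fall for 6.95%, and all 7 called member probes differed by more than 2-fold. The members and the gene lists below were chosen with earlier results of these data known, so such shares are descriptions only. P-values here measure the spread between 3 arrays per group, which the study's methods give as biological replicates.

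**Figure D1:**
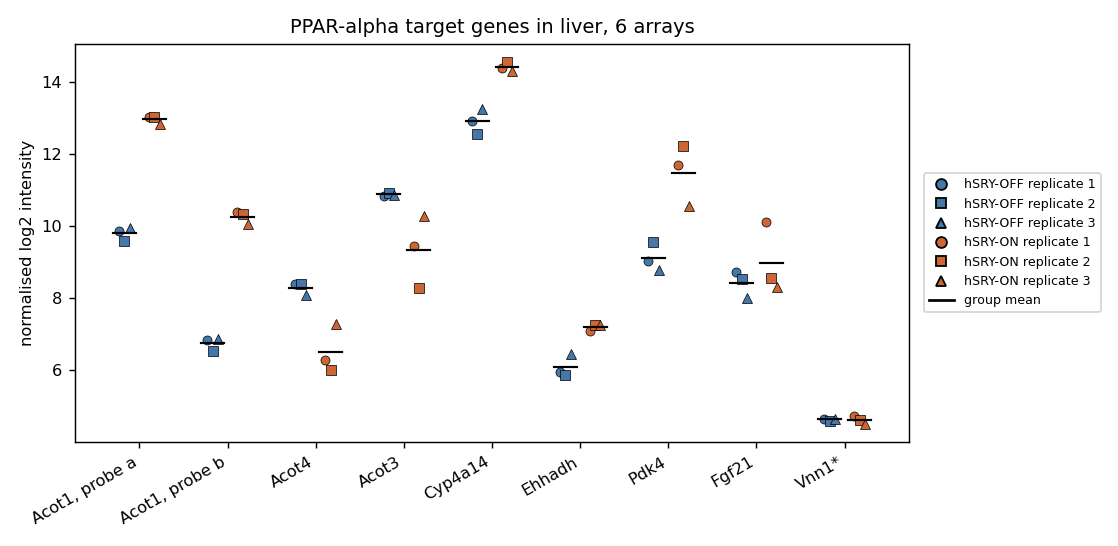
Normalised log2 intensity (y axis) of each member probe on the 6 arrays, with hSRY-OFF and hSRY-ON pups as points shaped by replicate and a line at each group mean (n = 3). Both Acot1 probes (a is ILMN_3139875, b is ILMN_3062267) sit far higher in hSRY-ON, Acot3 and Acot4 sit lower, the Fgf21 groups overlap, and the asterisk marks Vnn1, detected on 0 of 6 arrays. Heights are not comparable between probes.

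**Figure D2:**
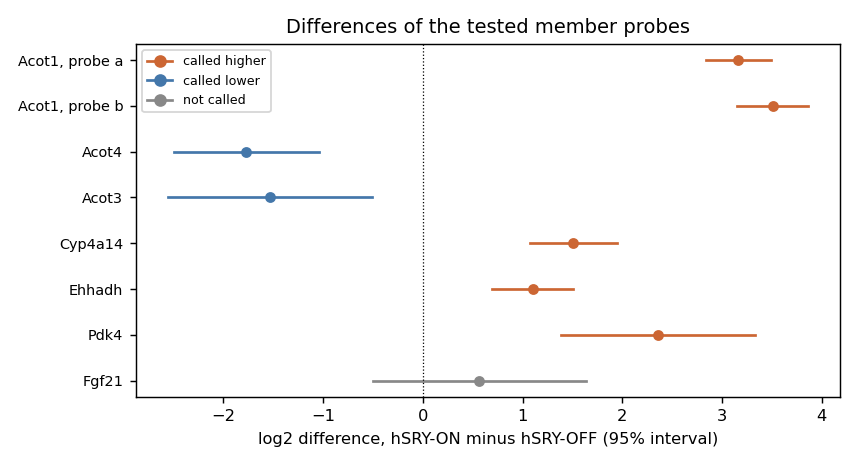
Difference between hSRY-ON and hSRY-OFF (x axis, log2 scale) for each tested member probe, with its 95% confidence interval from limma. The intervals of 7 probes lie on one side of 0 and that of Fgf21, from -0.50 to 1.63, spans it.

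The acyl-CoA thioesterases Acot1, Acot3 and Acot4 cleave acyl-CoA to a free acid and coenzyme A, and whether they share substrates was not examined. Acot1 works in the cytosol, and Acot3 and Acot4 in the peroxisome. Their genes are close copies that lie side by side on chromosome 12, in the order Acot2, Acot1, Acot4, Acot3, Acot5, Acot6 among protein-coding genes of the RefSeq table. The 250 bases before the transcription start of the 3 member genes (RefSeq, assembly GRCm38.p6, plus strand) are shown because these neighbours went opposite ways: Acot1 lies at chr12:84009252-84009501, Acot4 at chr12:84038129-84038378 and Acot3 (the first of its 2 listed starts) at chr12:84051894-84052143. Capitals mark, in Acot4, a match to GGNCANAGGTCA on the opposite strand.
Acot1: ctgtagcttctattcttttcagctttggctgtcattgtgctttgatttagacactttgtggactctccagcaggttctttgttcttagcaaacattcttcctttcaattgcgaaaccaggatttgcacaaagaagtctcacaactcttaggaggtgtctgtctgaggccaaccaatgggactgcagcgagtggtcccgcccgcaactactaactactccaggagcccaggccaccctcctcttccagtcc
Acot4: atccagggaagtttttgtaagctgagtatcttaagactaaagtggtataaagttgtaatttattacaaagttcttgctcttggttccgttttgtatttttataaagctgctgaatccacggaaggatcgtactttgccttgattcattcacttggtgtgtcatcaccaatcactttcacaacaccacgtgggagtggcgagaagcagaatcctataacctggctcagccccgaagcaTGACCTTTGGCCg
Acot3: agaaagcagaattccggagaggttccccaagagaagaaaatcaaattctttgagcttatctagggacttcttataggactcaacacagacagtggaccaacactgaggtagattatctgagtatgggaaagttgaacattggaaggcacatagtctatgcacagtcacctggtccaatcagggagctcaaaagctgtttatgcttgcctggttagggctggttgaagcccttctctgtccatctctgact

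PPAR-alpha with its partner is known to bind 2 copies of AGGTCA, or near copies, set 1 base apart. On both strands of the 300-base windows that RefSeq starts gave (250 bases before and 50 after the start), AGGTCA occurs in 16.3% of 32851 windows, the exact repeat AGGTCANAGGTCA in 0.0396%, and GGNCANAGGTCA, which contains AGGTCA and was chosen after the Acot4 promoter had been read, in 0.207%. Acot4 holds GGCCAAAGGTCA at bases -13 to -2 from its start, read on the opposite strand. Acot3 holds 1 AGGTCA at bases 18 to 23 after that start, outside the printed stretch. The windows of Acot1, Pdk4, Fgf21 and Ehhadh hold none of these motifs, and windows were found for 6 of the 9 genes. A match of letters is not a test of binding.

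Acot1 had the largest rise among the tested members. At probe ILMN_3139875, raw intensities were 1133, 999 and 934 on the hSRY-OFF arrays and 8898, 8081 and 6157 on the hSRY-ON arrays. All hSRY-ON values lay several times above all control values. After normalisation the log2 intensity was 9.80 ± 0.18 (SD, n = 3) in hSRY-OFF and 12.96 ± 0.11 (SD, n = 3) in hSRY-ON, a difference of 3.16 ± 0.14 (SE, 95% interval 2.84 to 3.49, adjusted p 3.28e-05, limma), or 8.96-fold. At the other probe, ILMN_3062267, raw intensities were 253, 234 and 216 in hSRY-OFF and 1600.2, 1358 and 1054 in hSRY-ON. This probe gave 6.74 ± 0.19 (SD, n = 3) against 10.25 ± 0.19 (SD, n = 3), a difference of 3.51 ± 0.15 (SE, 95% interval 3.15 to 3.87, adjusted p 3.28e-05, limma), or 11.4-fold. With no background correction the differences were 2.97 ± 0.10 (SE) at ILMN_3139875 and 2.45 ± 0.10 (SE) at ILMN_3062267, so the size at the dimmer probe depends on that step.

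Acot4 fell. Its raw intensities were 489.8, 499 and 344 in hSRY-OFF and 217, 187 and 254 in hSRY-ON pups. The lowest control value stood above the highest hSRY-ON value, and the hSRY-ON values were low but still detected on all 3 arrays. The normalised log2 intensity was 8.28 ± 0.16 (SD, n = 3) and 6.52 ± 0.66 (SD, n = 3), a difference of -1.77 ± 0.31 (SE, 95% interval -2.49 to -1.04, adjusted p 0.00545, limma), which is 3.41-fold lower. With no background correction the difference was -0.94, still past the threshold.

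Acot3 was also lower in hSRY-ON, with a wide spread. Raw intensities were 2171, 2322 and 1759 in hSRY-OFF and 912, 429.8 and 1196 in hSRY-ON pups. The control values lay close together and above every hSRY-ON value, whereas the hSRY-ON values differed widely, with replicate 2 the lowest. The log2 intensity was 10.87 ± 0.037 (SD, n = 3) against 9.34 ± 0.996 (SD, n = 3), a difference of -1.53 ± 0.44 (SE, 95% interval -2.56 to -0.51, adjusted p 0.033, limma), or 2.89-fold lower. This call was lost in 5 of 16 alternative settings: without hSRY-OFF replicate 1 (adjusted p 0.0897), replicate 2 (0.0936) or replicate 3 (0.0834), without hSRY-ON replicate 1 (0.0746) and with no filter on detection (0.0754). Without hSRY-ON replicate 3 the difference was -2.003 (adjusted p 0.00431), and without replicate 2 it was -1.01 (adjusted p 0.0237).

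**Figure D3:**
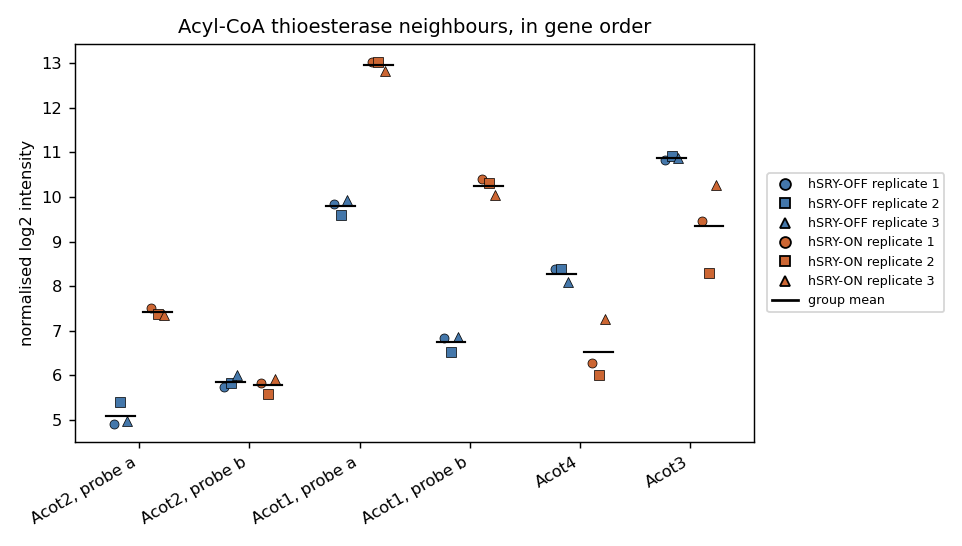
Normalised log2 intensity (y axis) on the 6 arrays, with points by replicate and lines at group means, for probes of the neighbouring genes Acot2, Acot1, Acot4 and Acot3 in their order on chromosome 12. Both Acot1 probes and 1 Acot2 probe (a, ILMN_2745889) are higher in all hSRY-ON arrays, the other Acot2 probe (b, ILMN_2840492) is level, and Acot4 and Acot3 are lower.

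Unequal change within the gene cluster was described by log2 ratios within each array. These cancel only what shifts all normalised log2 values of an array alike. Background removal and quantile normalization come before the ratio, so their unequal effects on bright and dim probes do not cancel. Such a ratio cannot show the direction of either gene. The ratio of the Acot1 probe ILMN_3139875 to Acot3 was -1.07 ± 0.21 (SD, n = 3) in hSRY-OFF and 3.62 ± 1.09 (SD, n = 3) in hSRY-ON, a shift of 4.69. The ratio of Acot1 to Acot4 went from 1.51 ± 0.31 (SD, n = 3) to 6.44 ± 0.77 (SD, n = 3), a shift of 4.93. Both shifts had an exact two-sided permutation p of 0.1, the smallest that 3 against 3 arrays allow, and 0.15 after adjustment over the 3 pairs. With no background correction the shift was 4.29 for Acot1 to Acot3 and 3.91 for Acot1 to Acot4. In the main processing the groups did not overlap in either ratio. This separation and the exact permutation p of 0.1 follow from the single probes. There Acot1 was higher and Acot3 and Acot4 lower without overlap, so the ratios add no separate evidence. The ratio of Acot3 to Acot4 was 2.59 ± 0.16 (SD, n = 3) and 2.82 ± 0.48 (SD, n = 3), a shift of 0.24 (exact permutation p 0.5, adjusted 0.5), and its sign turned to -0.38 with no background correction. Probe sequences were not used here, so how far each probe distinguishes these close copies was not tested.

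Cyp4a14, a microsomal cytochrome P450 that adds a hydroxyl group to the far end of fatty acids, was bright in both groups and higher in hSRY-ON. Raw intensities were 8639, 7031 and 8969 in hSRY-OFF and 22925, 24903 and 17960 in hSRY-ON pups, with no overlap. The normalised log2 intensity went from 12.90 ± 0.34 (SD, n = 3) to 14.41 ± 0.12 (SD, n = 3), a difference of 1.51 ± 0.19 (SE, 95% interval 1.07 to 1.95, adjusted p 0.00138, limma), or 2.85-fold. As with the thioesterases, cross-hybridisation among the near-identical Cyp4a genes was not tested.

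Ehhadh, the peroxisomal enzyme that hydrates and dehydrogenates fatty acyl-CoA during beta-oxidation, had a dim probe. Raw intensities were 196, 195 and 192 in hSRY-OFF and 282, 269 and 254 in hSRY-ON pups. The groups did not overlap, and every array read the probe above detection. The normalised log2 intensity was 6.09 ± 0.31 (SD, n = 3) against 7.19 ± 0.10 (SD, n = 3), a difference of 1.10 ± 0.17 (SE, 95% interval 0.70 to 1.51, adjusted p 0.0036, limma), or 2.14-fold. The size depends on how the background is taken off: with no background correction it was 0.45 (adjusted p 0.00563).

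Pdk4 encodes a kinase that shuts off the pyruvate dehydrogenase complex and so spares glucose carbon. Its raw intensities were 700.5, 972 and 477 in hSRY-OFF and 3649, 4648 and 1419 in hSRY-ON pups. All hSRY-ON values exceeded the control values, with replicate 3 well below the other hSRY-ON arrays. The normalised log2 intensity rose from 9.12 ± 0.40 (SD, n = 3) to 11.48 ± 0.85 (SD, n = 3), by 2.36 ± 0.41 (SE, 95% interval 1.39 to 3.33, adjusted p 0.00549, limma), or 5.14-fold.

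Fgf21, a hormone that the liver releases in fasting, did not pass the test. Raw intensities were 589, 538 and 329 in hSRY-OFF and 1343, 487 and 398 in hSRY-ON pups. Only hSRY-ON replicate 1 exceeded all controls, and the other hSRY-ON arrays lay within the control range. The log2 intensity was 8.42 ± 0.37 (SD, n = 3) against 8.98 ± 0.97 (SD, n = 3), a difference of 0.57 ± 0.46 (SE, adjusted p 0.369, limma). The 95% interval of -0.50 to 1.63 leaves room for a rise of more than 2-fold as well as for none, and over 16 alternative settings the difference ran from 0.010, without hSRY-ON replicate 1, to 0.996, with array weights.

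Vnn1 encodes a pantetheinase of the cell surface, which splits pantetheine into pantothenate and cysteamine. The single probe with its symbol, ILMN_2455422, read between 125 and 149 and was detected on 0 of 6 arrays, so it was not tested. The probe of Fabp1, which hepatocytes are known to express, was likewise untested here, so an undetected probe alone does not show that a gene is silent.

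In hSRY-ON pups, replicate 3 had the value nearest to the control mean in 6 of the 7 called member probes (85.7%), with Ehhadh as the exception, where it was replicate 1. The same array was nearest in 1680 of all 3554 called probes (47.3%). This comparison was made after the values were seen. Without this array 5 member probes were still called higher and 2 lower, with differences of 3.24 and 3.62 for the Acot1 probes, -2.15 for Acot4, 1.54 for Cyp4a14, 1.07 for Ehhadh and 2.84 for Pdk4, and Fgf21 stood at 0.90 (adjusted p 0.159).

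For each tested member gene the probe of another gene with the most similar pattern was found by Pearson's r over the 6 arrays, among all tested probes. The 6 points fall in 2 groups, and r is given as a description only. They were Dnttip1 for Acot1 (r = 0.9983), Inhbe for Acot3 (0.9963), Rabl3 for Acot4 (0.9983), Rpp38 for Cyp4a14 (0.9974), Ddx26b, now Ints6l, for Ehhadh (0.9973), D430028G21Rik, now Mavs, for Fgf21 (0.9958) and Defb1 for Pdk4 (0.9981). Their own differences were of other sizes, such as 0.32 for Dnttip1 (adjusted p 0.051, not past the threshold) and -2.73 for Inhbe (adjusted p 0.0463). Defb1 came closest in size to its member, with 2.56 against 2.36 for Pdk4.

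The receptor itself was lower without passing the test. Ppara had log2 intensities of 8.12, 8.03 and 7.71 in hSRY-OFF and 7.16, 7.64 and 6.51 in hSRY-ON pups. The groups did not overlap, but the difference of -0.85 ± 0.28 (SE) had an adjusted p of 0.0536 (limma), and it passed in 7 of 16 alternative settings, among them without hSRY-ON replicate 2 (-1.12, adjusted p 0.0147), while without hSRY-ON replicate 3 it was -0.55 (adjusted p 0.0701). Its partners Rxra (0.31, adjusted p 0.178) and Rxrb (0.63 and 0.54 at its 2 probes, adjusted p 0.0568 and 0.059) did not pass. The relative Pparg, at its tested probe, differed by 0.18 (adjusted p 0.299), and Ppard was not tested.

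Of 23 genes for the receptors and their cofactors, 21 had a probe, and 19 probes were tested. Of these 6 were higher in hSRY-ON, 2 lower and 11 not called (42.1% called, beside 33.1% of all tested probes), with a median difference of 0.30. Coactivators and a corepressor were both among those that rose. Lpin1, which encodes lipin 1, a phosphatidate phosphatase that also acts as a coactivator of PPAR-alpha, was tested at 1 of its 3 probes, the other two being undetected on all arrays. That probe, ILMN_3111744, had log2 intensities of 6.36, 7.11 and 7.61 in hSRY-OFF and 10.29, 12.25 and 8.82 in hSRY-ON pups. The difference was 3.43 ± 0.79 (SE, adjusted p 0.015), and without hSRY-OFF replicate 1 it no longer passed (adjusted p 0.0588). Lpin2, its relative, rose by 1.82 ± 0.34 (SE, adjusted p 0.00664) and Ppargc1b, a coactivator of nuclear receptors, by 1.68 ± 0.34 (SE, adjusted p 0.00972), or by 1.05 with no background correction. Ppargc1a, the coactivator PGC-1 alpha, differed by 1.71 ± 0.53 (SE, adjusted p 0.0449), a call lost in 10 of 16 alternative settings, among them no background correction (1.007, adjusted p 0.067) and without any 1 of the arrays other than hSRY-ON replicate 3. Ncor1, a corepressor that recruits histone deacetylases, went from 6.40 ± 0.081 (SD, n = 3) to 8.005 ± 0.20 (SD, n = 3), a rise of 1.61 ± 0.14 (SE, adjusted p 0.000356) which was 0.82 with no background correction. The deacetylase gene Sirt1 was higher by 0.44 (adjusted p 0.0399) and Hdac3, which acts with Ncor1, differed by -0.44 (adjusted p 0.03), and each of these calls was lost without any 1 of the arrays other than hSRY-ON replicate 3. Ncoa3, a coactivator detected in no hSRY-ON pup, was at least 1.21-fold lower in background-corrected signal (adjusted p 0.00653), and differed by -0.22 on the log2 scale with no background correction (adjusted p 0.0483) and by -0.25 under trimmed-mean scaling (adjusted p 0.0642).

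**Figure D4:**
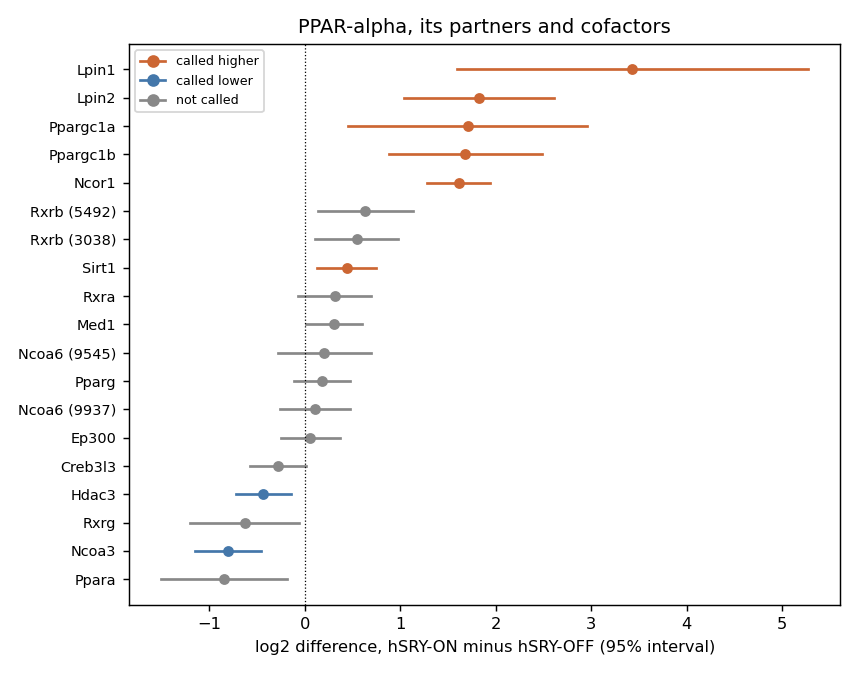
Difference between hSRY-ON and hSRY-OFF (x axis, log2 scale) with 95% confidence intervals from limma for the 19 tested probes of the receptors and cofactors. Where a gene has several probes, the last digits of the probe ID follow its symbol. Lpin1 and Ncor1 lie to the right of 0, and the interval of Ppara lies to its left although its adjusted p was 0.0536.

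Of 64 other genes known as PPAR-alpha targets, 63 had a probe and 77 probes of 52 genes were tested. Of these probes 28 (36.4%) were higher in hSRY-ON, against 15.8% of all tested probes, and 11 (14.3%) lower, against 17.3%. The median difference was 0.18. The probes with the smallest p-values in each direction belonged to the genes that follow, and to Acot2 (higher) and Vnn3 (lower). These 2 are described further below with the relatives of the members. Hilpda, a lipid droplet protein that inhibits lipolysis, rose by 3.28 ± 0.17 (SE, adjusted p 7.94e-05) at one probe and 3.18 ± 0.20 (SE, adjusted p 0.000141) at the other. Cpt1b, the muscle form of the carnitine palmitoyltransferase at the outer mitochondrial membrane, was detected in no hSRY-OFF pup and was at least 10.0-fold and at least 6.53-fold higher at its 2 probes (adjusted p 0.000151 and 0.000162). These bounds hold for background-corrected signal only, and with no background correction the log2 differences were 2.03 and 1.66. No probe of Cpt1a, the liver form, was tested. Pex11a, which takes part in peroxisome division, rose by 1.86 ± 0.13 (SE) and 1.96 ± 0.14 (SE) at its 2 probes (adjusted p 0.000162 at each). Aqp3, a glycerol channel, was at least 2.48-fold higher in background-corrected signal (adjusted p 0.000225), with no hSRY-OFF array above detection, and differed by 0.72 on the log2 scale with no background correction.

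Aqp9, the main one of hepatocytes, fell by 1.13 ± 0.13 (SE, adjusted p 0.00106), and Gpd1, the cytosolic glycerol-3-phosphate dehydrogenase, by 1.78 ± 0.25 (SE, adjusted p 0.00222). Decr1, a mitochondrial reductase needed for unsaturated fatty acids, fell by 0.87 ± 0.15 (SE, adjusted p 0.00504). The 4 probes of Acaa2, a mitochondrial thiolase, differed by -0.47 to -0.56, and the call was lost in 8 of 16 settings at the weakest of them. Calls among these targets thus lay on both sides of 0.

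**Figure D5:**
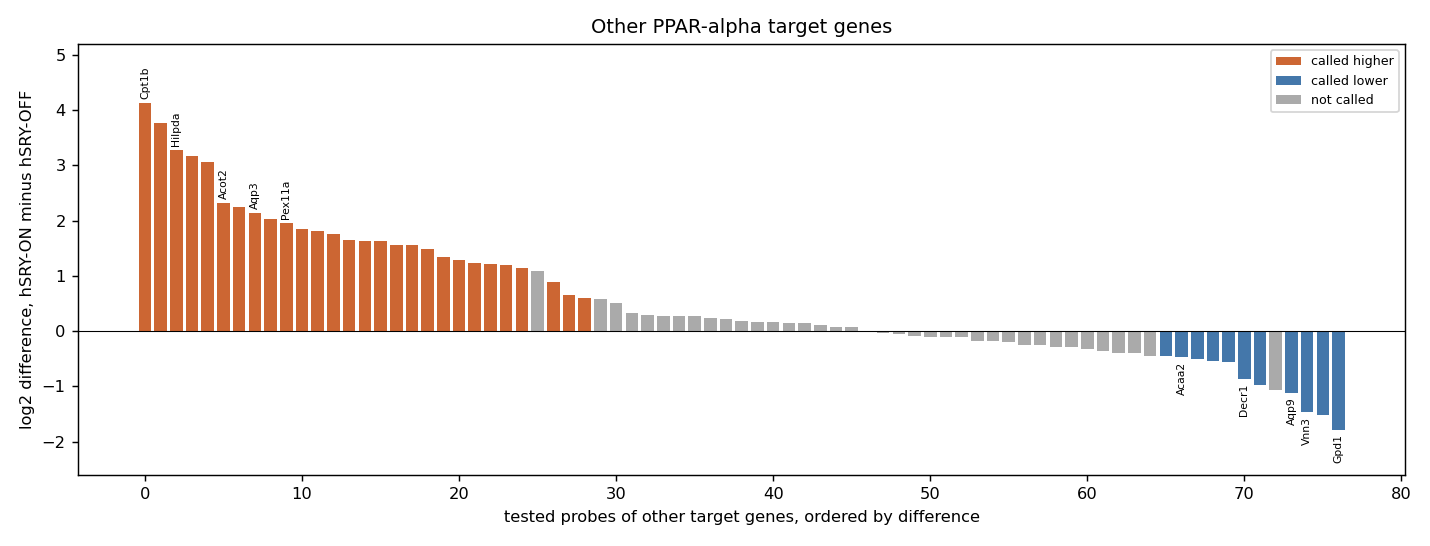
Difference between hSRY-ON and hSRY-OFF (y axis, log2 scale) for the 77 tested probes of other PPAR-alpha target genes in descending order, coloured by call, with the named genes written at the first of their called probes. Bars called higher number 28 and bars called lower 11. Bars of probes undetected in one group, such as those of Cpt1b, are fitted values and no bounds.

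Of 30 genes listed as relatives of the members, 29 had a probe, and 32 probes were tested. Of these probes 8 were higher in hSRY-ON and 4 lower (37.5% called, a share near the 33.1% of all tested probes). Acot7, Acot8, Acot10 and Acot12 share the family name with members, and their likeness in sequence was not examined. At the gene next to Acot1, the Acot2 probe ILMN_2745889 had log2 intensities of 4.92, 5.40 and 4.97 in hSRY-OFF, all below detection, and 7.51, 7.38 and 7.36 in hSRY-ON pups, at least 3.20-fold higher in background-corrected signal (adjusted p 0.000155). With no background correction the log2 difference was 0.85, which is smaller than that bound. Another Acot2 probe, ILMN_2840492, was near the detection limit in both groups and differed by -0.081 (adjusted p 0.688), and one more was undetected. Acot2 is the mitochondrial copy of Acot1. Acot10 was higher by 0.96 ± 0.20 (SE, adjusted p 0.011), or by 0.55 with no background correction, and 2 of the 4 Acot7 probes were called higher. The peroxisomal Acot8, with 3 probes between -0.18 and -0.057, and Acot12, at -0.036, were not called.

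Among relatives of Cyp4a14, Cyp4a31 had log2 intensities of 10.16, 9.84 and 10.39 in hSRY-OFF and 12.01, 12.58 and 11.24 in hSRY-ON pups, a rise of 1.81 ± 0.33 (SE, adjusted p 0.00612). Cyp4a12a, known as a male-biased form in adult mice, had 8.03, 6.63 and 9.31 against 9.27, 9.33 and 8.64. Its control arrays spread over more than the groups differed (1.09, adjusted p 0.202), and without hSRY-OFF replicate 3 the difference was 1.75 and passed (adjusted p 0.0324), whereas without hSRY-OFF replicate 2 it was 0.41 (adjusted p 0.504). Cyp4b1 rose by 1.65 ± 0.22 (SE, adjusted p 0.00195), or by 0.92 with no background correction. Of the Cyp4f genes, whose enzymes hydroxylate leukotrienes and other lipids, Cyp4f14 went from 9.57 ± 0.15 (SD, n = 3) to 5.62 ± 0.44 (SD, n = 3), a difference of -3.95 ± 0.22 (SE, adjusted p 9.70e-05) and of -3.75 with the 2 undetected hSRY-ON arrays set at their detection limit. With no background correction it was -2.24 and under trimmed-mean scaling -2.36. Cyp4f15 fell by 1.45 ± 0.18 (SE, adjusted p 0.0015).

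The other pyruvate dehydrogenase kinases had smaller differences than Pdk4, though the difference between them was not tested. Pdk1 rose by 1.12 ± 0.25 (SE, adjusted p 0.013) and Pdk2 by 0.998 ± 0.26 (SE, adjusted p 0.0228), and Pdk3 stood at 0.45 (adjusted p 0.0695, and 0.0428 without hSRY-OFF replicate 3). The call of Pdk1 was lost without hSRY-OFF replicate 1 (adjusted p 0.054) and that of Pdk2 without any 1 of the arrays other than hSRY-ON replicate 3 (adjusted p 0.0584 to 0.0728). Hsd17b4, which catalyses the same peroxisomal steps as Ehhadh on branched-chain fatty acids and bile acid precursors, differed by -0.20 (adjusted p 0.263).

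Vnn3, the neighbour in function of Vnn1, went the other way from most called members. At ILMN_1244479 its log2 intensities were 11.93, 11.98 and 12.04 in hSRY-OFF and 10.43, 10.49 and 10.50 in hSRY-ON pups, a fall of 1.51 ± 0.11 (SE, adjusted p 0.000185), and at the other probe the fall was 1.47 ± 0.13 (SE, adjusted p 0.000356). The spread within each group was small beside the gap. Of the receptors that Fgf21 acts through, Klb, the co-receptor that gives it its target tissues, differed by 0.0084 (adjusted p 0.974) and Fgfr2 by -0.34 (adjusted p 0.575). The probes of Fgfr1, Fgfr3 and Fgfr4 were not tested, nor were those of Kl, a gene only listed with them.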

How the data were processed

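Liver RNA of 3 hSRY-ON and 3 hSRY-OFF pups was read on bead arrays. The deposited table held mean bead intensity, left by the authors without background subtraction or normalization (lowest 108), and a deposited detection p-value per probe and array. There were 0 columns that lacked a sample, and no column of the authors' comparisons was used. Groups and replicate numbers came from the labels. The study's methods name TCC, a package for counts, for normalization, and the submitters' processing notes name limma. The software settings, control beads, slides and scan dates were not used here, so those batches were not examined. Each array's background, estimated with the help of its detection p-values, was removed by normexp (limma 3.58.1 in R 4.3.3, function nec, offset 16), followed by quantile normalization and log2. The offset shrinks differences of dim probes. Probes with detection p under 0.01 on at least 3 of 6 arrays were fitted (lmFit, eBayes, no covariates) and adjusted by Benjamini-Hochberg over all 10734, with a threshold of 0.05 and two-sided tests. Probes were tested separately. With 3 arrays per group their number limits the precision.

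For probes undetected throughout one group, "at least N-fold" sets the mean of the brighter group against the dim group with each array at its lowest detected signal, or at the probe's own signal where that was higher, all in background-corrected values. The procedure was also run on simulated data, with independent noise and fewer changed probes than were called here. The setting of that simulation was changed after its first run, and it is not used as support. Symbols were matched through older names in the RefSeq gene table of GRCm38.p6. In the gene lists, named were all members, genes of the receptors, cofactors, relatives and Fgf21 receptors, and of the other targets the 5 smallest p in each direction (1 probe per gene) and genes of the same enzyme step. Members and lists were chosen with earlier results of these data known. A planned comparison of Cyp4a10 with Cyp4a14 was not made. The alternatives were no background correction, normexp without control information (offset 50), offset 50, median scaling, scaling by trimmed mean of M values (own code), detection p under 0.05, no filter, trend and robust, array weights, a replicate block, an adjusted p of 0.01, and leaving out each array. They were computed for the counts, the pairs and a selection of named probes made after the values were seen, not for the most similar genes.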

Additional observations from a re-analysis of the deposited data

How the results depend on the processing

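Under 16 alternatives the called probes of Acot1, Acot4, Cyp4a14, Ehhadh and Pdk4 kept their direction and call, and Fgf21 stayed uncalled. Acot3 kept its direction and lost its call in 5. With an adjusted p under 0.01, called probes were 693 higher and 972 lower over all, 1 lower among the members, 6 lower among other targets, and 3 higher and 1 lower among receptors and cofactors. With no filter 1 member was lower. Receptor and cofactor probes called lower numbered 1 under median scaling, 1 under trimmed-mean scaling and 4 with array weights. Without 1 array, all probes called higher ran from 893 (without hSRY-OFF replicate 1, and 975 without replicate 2) to 1944 and lower from 1141 (1191 without replicate 2) to 2116, member probes lower from 1 to 2, other targets lower from 6 to 10, and receptors and cofactors higher from 3 to 8 and lower from 1 to 3. The Acot3 to Acot4 shift was -0.38 with no background correction. Differences near 0 changed sign: Acot12 was 0.048 with array weights and -0.21 to 0.20 without 1 array, Acot2 at ILMN_2840492 -0.15 to 0.013 without 1 array, and Klb -0.051 under median scaling, -0.011 under trimmed-mean scaling and -0.12 to 0.16 without 1 array. The causes were not tested beyond what each setting removes. No setting moved the median of all tested probes beyond -0.038 to 0.022. Deviations of same-numbered samples from their group means had correlations of 0.0248, 0.0955 and 0.0523. With 3 arrays per group these cannot decide whether the numbers pair the samples. With the number as a replicate block, 1565 probes were higher and 1645 lower over all, with 5 and 2 among the members, and Ppara passed (adjusted p 0.0266). Dim probes such as Ehhadh, close to background, have the least certain size.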
